A study of Homo sapiens with 40 samples.

Results

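The core spliceosome and RBM genes encode mainly protein components of the machinery that removes introns, and RNA-binding motif proteins. Many of the latter adjust where the machinery cuts. The genes also include CLK kinases and LSM genes such as LSM14A, a P-body protein gene. They were taken from a catalogue of transcript models by name: genes beginning with SNRP, SNRNP, SF3A, SF3B, PRPF, LSM and a digit, U2AF, CWC, LUC7L, CLK1 to CLK4 or RBM and a digit, plus U2SURP and PUF60. RBM4 and identifiers with a joining mark (a hyphen or a low line) were left out. The rule took 186 of 19972 models and 85 of 9460 genes, all 85 of them protein-coding in RefSeq. Of these genes 59 have other names and 26 are RBM genes.

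The study used H9, an established human embryonic stem cell line, as undifferentiated embryonic stem cells (ESC, labelled control) and as neural progenitor cells (NPC) made from it by dual-SMAD inhibition, which blocks BMP and TGF-beta signalling. Poly A+ RNA came from 4 fractions of each cell type: cytosol, RNA on single ribosomes (monosome), light polyribosomes with 2 to 4 ribosomes, and heavy polyribosomes with at least 5. Each of these 8 groups had 2 libraries sequenced with long reads and 3 with short reads, 40 in all. The data analysed here are 1 catalogue of long-read models, which holds exon and coding positions but no value per library, so ESC, NPC and fractions are not compared and depth is unknown. In the catalogue models were found for the stem cell genes POU5F1, NANOG, LIN28B and DNMT3B and for the neural progenitor genes PAX6, OTX2, NES and FABP7.

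As background, an intron is marked by the U1 particle at its 5' splice site and by U2 with U2AF at the branch site and 3' splice site. The U4/U6.U5 tri-snRNP then joins, and the Prp19 complex helps to activate the assembled enzyme. A ring of Sm proteins sits on most spliceosomal RNAs and a ring of LSM proteins on U6. CLK kinases phosphorylate SR proteins, and several splicing regulators are known to limit their own output through exons that bring an early stop codon.

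Most of the named genes were represented. Of 105 protein-coding genes that RefSeq lists under these names, 85 had a model (81.0%, 95% Wilson interval 72.4 to 87.3%), against 41.9% of all 20056 protein-coding genes. All 8 Sm ring genes had a model, as did all 5 genes of the minor spliceosome, which removes the rare U12-type introns. The U2 and branch site group had 18 of 19 (without SF3B5), the U1 group 8 of 10 and the tri-snRNP group 10 of 12. The tri-snRNP genes without a model were PRPF8, the scaffold at the catalytic centre, and SNRNP200, the helicase that unwinds U4 from U6. Of the Prp19 and activation group 6 of 7 had a model (without CWC22), of the LSM genes 10 of 13 (without LSM4, LSM11 and LSM14B), and of the CLK genes 3 of 4 (without CLK4). The other RBM genes were the least complete group, with 17 of 27; RBM12B, RBM15, RBM15B, RBM19, RBM20, RBM27, RBM43, RBM44, RBM46 and RBM47 had none. A gene without a model in the data analysed here is not shown to be silent. The longest model of the whole catalogue had 5877 nt, and whether transcript length bears on the missing genes was not tested.

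**Figure D1:**
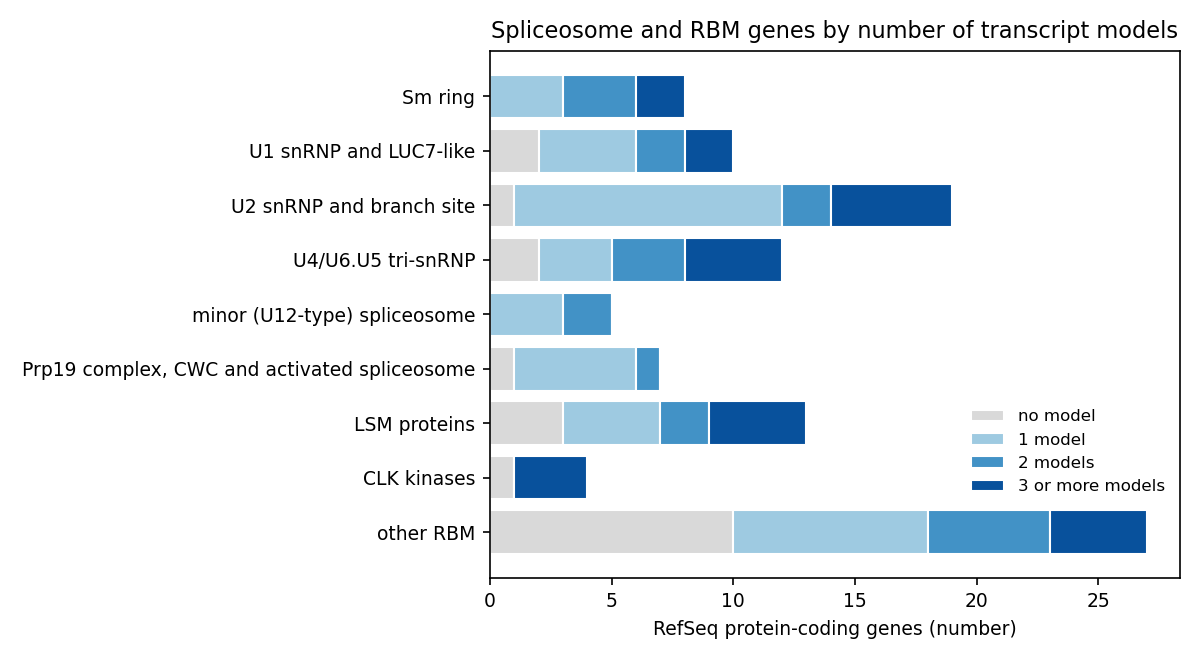
RefSeq protein-coding genes (x axis, number) in each role of the spliceosome and RBM genes (y axis), coloured by their number of transcript models. The Sm ring and the minor spliceosome have no gene without a model, and the other RBM genes have the most, 10 of 27.

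The number of isoforms was close to that of other genes. A mean of 2.19 ± 1.74 models (SD over genes, n = 85, median 2) stood beside 2.11 ± 1.70 (n = 9460, median 2) in the whole catalogue. At least 2 models were found for 44 of the 85 genes (51.8%, 95% Wilson interval 41.3 to 62.1%), against 50% of all genes. U2AF1L4, a paralogue of the small U2AF subunit, had the most with 10. PUF60, which binds pyrimidine-rich tracts with U2AF, followed with 8, then LUC7L, a U1-associated protein gene, and RBM39, a U2AF-related splicing factor gene, with 7 each. CLK3, PRPF31, RBM42 and SNRPE had 5 each, and CLK1, CLK2, LSM2, RBM23 and SNRPA1 had 4. A coding region was given for 161 of the 186 models (86.6%, against 86.4% of all models) and for 82 of the 85 genes (96.5%, against 90.7%).

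Alternative 3' splice sites were found in a larger share of these genes than of all genes. For cassette exons, alternative 5' splice sites, retained introns and separate first and last exons the background lay within the 95% interval. Of the 44 genes with at least 2 models, 17 had alternative 3' splice sites (38.6%, 95% Wilson interval 25.7 to 53.4%), against 23.3% of all genes with at least 2 models. A cassette exon, which is included in 1 model and skipped in another, was found in 24 (54.5%, interval 40.1 to 68.3%) against 49.3%. An exon that 2 or more models held and 2 or more skipped, which needs at least 4 models, was found in 5 of the 44 (11.4%, against 9.51%). Of the genes with at least 4 models, these were 5 of 13 (38.5%, against 32.8%). Alternative 5' splice sites were found in 9 (20.5% against 25.2%) and retained introns in 8 (18.2% against 17.3%). First exons that do not overlap were found in 6 genes (13.6% against 18.0%) and last exons that do not overlap in 9 (20.5% against 26.9%). Models of these genes had a mean of 8.82 exons (median 8), against 7.40 (median 6) for all models. The shares were not adjusted for this, and whether it bears on them was not tested. Such intervals cover counting error only, genes are not replicates, and the list was not tested.

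**Figure D2:**
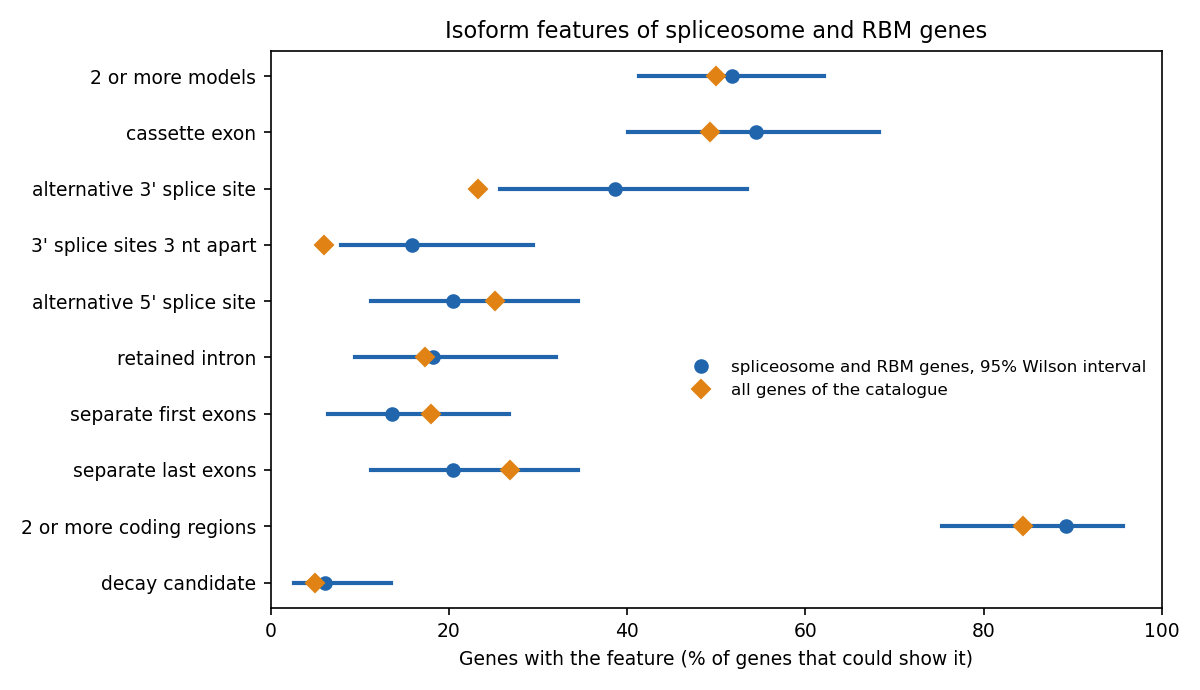
Share of genes with each isoform feature (x axis, % of genes that could show it), for the spliceosome and RBM genes (blue points, bars are 95% Wilson intervals) and for all genes of the catalogue (orange diamonds). The diamonds lie within the bars except for alternative 3' splice sites (23.3% beside 38.6%) and for those 3 nt apart (5.98% beside 15.9%).

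Splice sites 3 nt apart, which add or remove 1 codon without shifting the frame, made up 8 of the 22 alternative 3' splice sites (36.4%, against 21.6% of 1345 in the catalogue). They lay in 7 of the 44 genes (15.9%, 95% Wilson interval 7.93 to 29.4%), against 5.98% of all genes with at least 2 models. CLK2 held a pair of them, at 155268792 and 155268795 and at 155269713 and 155269716 on chromosome 1, and its 4 models were the 4 combinations, with 498, 499, 499 and 500 codons. The other genes were the U2 component SF3B2 (895 and 896 codons), the tri-snRNP gene PRPF4 (522 and 523), the exon junction gene RBM8A (174 and 175) and RBM7, an adaptor of the nuclear exosome (267 and 268). In RBM42 models with 451 and 452 codons differed in this way, and in PUF60 those with 542 and 543 and those with 559 and 560. Sites 6 nt apart were found in RBM45 (475 and 477 codons) and in LSM6, whose models carry no coding region. The bases at these sites were not read here.

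Starts of models of 1 gene lay close together in a larger share of these genes than of all genes. Of 38 genes with several models matched to a RefSeq promoter, 33 had all starts within 50 nt of each other (86.8%, 95% Wilson interval 72.7 to 94.2%), against 67.3% of 3797 such genes. RefSeq promoters (GRCh38.p14, 250 bases before to 50 after the annotated start) matched 74 of the 85 genes and 156 of their models. Of those 156 starts, 25 were at the RefSeq base (16.0%), against 16.7% of 15923 matched models of all genes. Within 50 nt of it were 124 (79.5% against 68.8%), and 130 lay in the 300-base window (83.3% against 73.5%). The stretches below run 5' to 3' on the strand of the gene, from 40 bases before the RefSeq start to 25 after it, and were chosen after the starts were seen, as examples of genes with at least 4 models whose starts mostly fall in such a stretch. RBM42, CLK3 and SNRPE, with 5 models each, are not shown: 2 starts of RBM42 (30 and 58 nt downstream) and all of CLK3 lie outside it, and SNRPE has starts 244 and 239 nt upstream beside 3 near the RefSeq base. Capitals mark each base at which a deposited model begins.
U2AF1L4 (chr19:35745393-35745458, minus strand): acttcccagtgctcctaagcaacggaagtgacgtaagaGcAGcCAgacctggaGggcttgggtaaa
LUC7L (chr16:229424-229489, minus strand): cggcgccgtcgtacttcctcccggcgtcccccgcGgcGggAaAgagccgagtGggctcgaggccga
PRPF31 (chr19:54115714-54115779, plus strand): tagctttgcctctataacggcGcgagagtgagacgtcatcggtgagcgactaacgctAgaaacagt
CLK1 (chr2:200864633-200864698, minus strand): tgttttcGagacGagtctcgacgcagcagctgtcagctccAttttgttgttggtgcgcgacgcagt
CLK2 (chr1:155273479-155273544, minus strand): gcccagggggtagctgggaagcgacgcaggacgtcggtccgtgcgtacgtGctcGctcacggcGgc

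In U2AF1L4 9 of 10 models began inside this stretch, between 2 nt upstream and 13 nt downstream of the RefSeq start, and the last began 758 nt downstream. The 7 starts of LUC7L lay from 6 nt upstream to 12 nt downstream. In PRPF31 4 of 5 models began at 1 base, 17 nt downstream, and the remaining one 19 nt upstream. CLK1 had starts 33 and 28 nt upstream, at the RefSeq base, and 418 nt downstream in a separate first exon. CLK2 models began 10, 14, 14 and 23 nt downstream. Far from the RefSeq start were all 3 models of SNRPN (98380 to 98418 nt downstream), both of LUC7L2 (19422 and 19431 nt), all 5 of CLK3 (7479 to 7519 nt) and the only model of SF3B1 (41891 nt). A model of LSM5 began 4880 nt upstream.

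**Figure D3:**
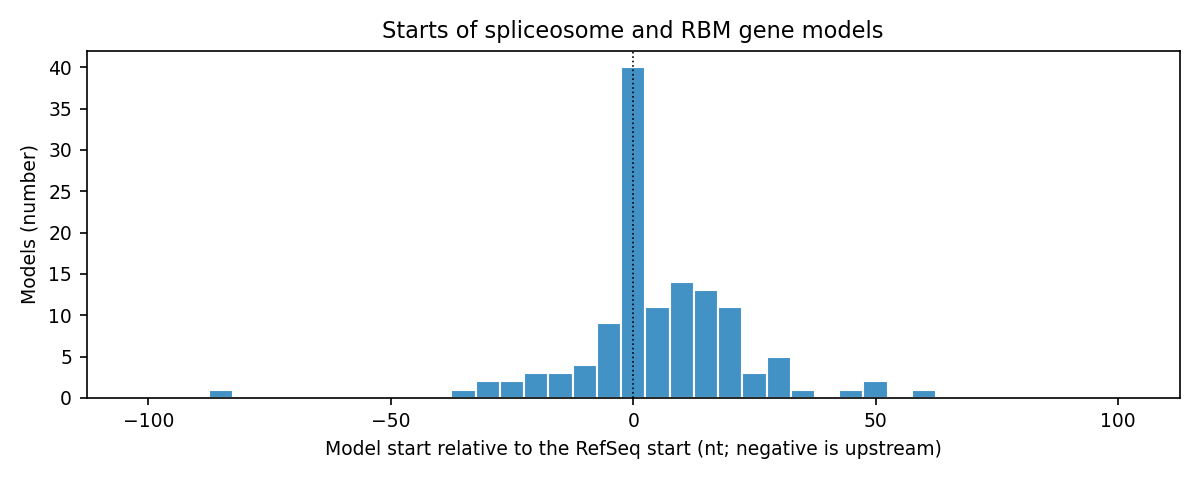
Starts of 127 models of spliceosome and RBM genes (y axis, number per 5 nt) relative to the RefSeq start (x axis, nt, negative is upstream); 29 models with starts more than 100 nt away are not drawn. The tallest bar is at the RefSeq start, and all but 1 of the other starts drawn lie within 60 nt.

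The promoters of these genes held the heptamer CCGGAAG, a form of the site bound by ETS factors, in 30 of 74 cases (40.5%, 95% Wilson interval 30.1 to 51.9%). Searched on both strands in the same 300-base window, it was present in 21.9% of 6975 promoters of protein-coding genes with a model and in 14.2% of all 15843. The window is set by the RefSeq start and need not be the promoter of the deposited models. Models began far from it in LUC7L2, counted with a match, and in SNRPN, CLK3 and SF3B1, counted without. The nearest match lay within 60 nt of the RefSeq start in 21 of the 30 genes (70.0%, against 64.5% of 1526 promoters with a match). By role, 4 of 6 Prp19 and activation promoters held it, 10 of 16 of the U2 and branch site group, 4 of 7 of the Sm ring and 3 of 9 of the tri-snRNP group. In the other groups it was in 5 of 16 other RBM promoters, 2 of 7 U1 promoters, 2 of 7 LSM promoters, 0 of 3 minor spliceosome promoters and 0 of 3 CLK promoters, and these counts are too small to rank the roles. TATAAA was found in 3 promoters, those of CWC15, RBM26 and SNRPC (4.05%, against 5.00% of protein-coding genes with a model and 9.63% of all 15843). CCAAT was held by 33 (44.6%, against 38.5% and 36.4%). GGGCGG was held by 42 (56.8%, 95% Wilson interval 45.4 to 67.4%). That was below the 71.6% of genes with a model, but the 58.5% of all 15843 lay within the interval. Matches to CCGGAAG and GGGCGG can share end bases. The median number of CG dinucleotides was 25 in these 74 windows and 26 in the 6975. The windows of 4 U2 genes are shown with the heptamer in capitals, chosen after the matches were seen because each lies on the strand of the gene within 60 nt of the start.
SF3A1 (chr22:30356922-30356958, minus strand, 49 nt upstream): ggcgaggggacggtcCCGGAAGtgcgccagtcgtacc
SF3A2 (chr19:2236800-2236836, plus strand, 9 nt upstream): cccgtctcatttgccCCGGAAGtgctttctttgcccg
SF3B4 (chr1:149927808-149927844, minus strand, 26 nt upstream): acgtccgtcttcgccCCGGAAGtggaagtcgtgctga
U2AF2 (chr19:55654990-55655026, plus strand, 30 nt upstream): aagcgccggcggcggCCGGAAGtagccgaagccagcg
Distances are from the RefSeq start. The only U2AF2 model began 28 nt upstream of that start, inside the marked match. A match describes the letters in the window and is not a measurement of binding.

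Among the Sm ring genes 5 of 8 had at least 2 models, and 2 had more than 1 coding region. SNRPB, which encodes SmB and SmB', had 2 models with 241 and 232 codons, set apart by 3' splice sites 146 nt from each other (2461793 and 2461939 on chromosome 20). SNRPN, the imprinted paralogue of SNRPB, had 3 models that shared 1 coding region of 241 codons. Their 5' untranslated regions were 313, 388 and 502 nt long, and a cassette exon of 151 nt there (chromosome 15, 24967932 to 24968082) was present in 2 models. SNRPD2 had models with 119 and 109 codons, the shorter with a cassette exon of 115 nt. SNRPE had 5 models, of which 1 carried a coding region, with 85 codons and a cassette exon of 41 nt. SNRPG had 2 models without a coding region, 1 of them with a cassette exon of 23 nt (chromosome 2, 70289350 to 70289372). SNRPD1, SNRPD3 and SNRPF had 1 model each, with 120, 127 and 87 codons.

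In the U1 group LUC7L showed the widest range of coding lengths. Its 7 models on chromosome 16 (188990 to 229455) had 64, 273, 313, 319, 326, 326 and 372 codons, in 6 coding regions. A cassette exon of 177 nt inside the coding region (199062 to 199238) was spliced into 5 models and left out of the model with 313 codons. A cassette exon of 70 nt (228333 to 228402) occurred in the models with 64, 273 and 319 codons and was skipped in 4. Another, of 64 nt (208601 to 208664), occurred in the model with 64 codons only. LUC7L2 had 2 models with 393 and 271 codons and different last exons. SNRNP70, which encodes a U1-specific protein that binds the U1 RNA, had 438 and 429 codons through 3' splice sites 27 nt apart. SNRPA, which encodes the A protein of U1, had 3 models with 1 coding region of 283 codons behind 5' untranslated regions of 91, 124 and 529 nt, the longest with retained introns of 449 and 409 nt that share their 3' end.

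The U2 and branch site group held both genes with many isoforms and core subunits with 1. U2AF1, which encodes the subunit that reads the AG of the 3' splice site, had 3 models on chromosome 21 (43092956 to 43107570). They turned on 2 exons of 67 nt each, at 43101366 to 43101432 and at 43100453 to 43100519, a pair known from the U2AF1a and U2AF1b proteins. A model with only the first had 241 codons, a model with only the second also had 241, and the model with both had 168 codons and a 5' untranslated region of 313 nt, against 55 and 76 nt. No model lacked both exons. In the plot of exon maps the coding part of that model begins downstream of the doubled exons.

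**Figure D4:**
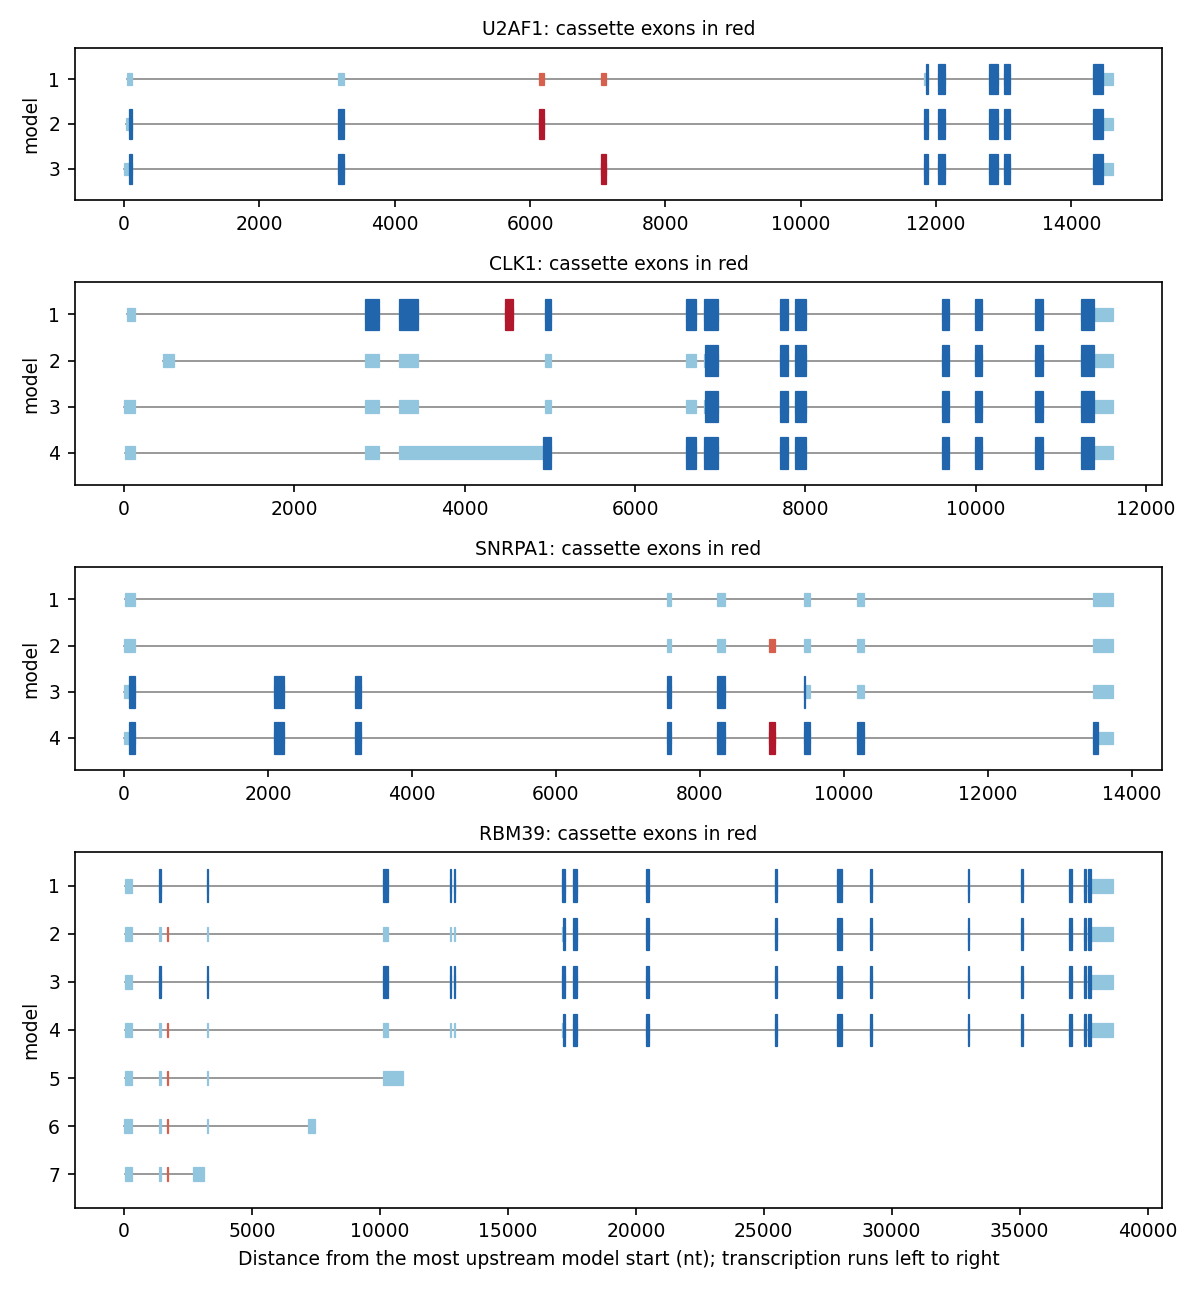
Exon maps of U2AF1, CLK1, SNRPA1 and RBM39 to scale (x axis, nt from the most upstream model start; y axis, model number), with coding parts as tall boxes, untranslated parts as low boxes, introns as lines and cassette exons in red. U2AF1 models hold either red exon or both, and the CLK1 model 4 holds 1 long exon in place of the red exon and its introns.

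PUF60 on chromosome 8 (143816378 to 143829341) had 8 models and 8 coding regions of 500 to 560 codons, all with 1 stop position. A cassette exon of 51 nt (143820666 to 143820716) split the models 4 to 4. A cassette exon of 87 nt, or 84 nt with the downstream one of 2 splice sites 3 nt apart, was held by 6 models and absent from 2, and the starts fell in 2 separate first exons. U2AF1L4 on chromosome 19 (35742528 to 35745420) had 9 coding models with 6 coding regions of 104 to 203 codons. Of these, 4 models shared a coding region of 144 codons behind 5' untranslated regions of 248, 268, 292 and 304 nt. Among single-model subunits SF3B3 had 1218 codons, SF3A1 794, SF3A3 502, U2AF2 472 and SF3A2 465. SF3B1, the branch site subunit often mutated in blood cancers, was represented only by a model of 2 exons with 75 codons, and U2SURP by 6 exons with a coding region that reached the last base of the model.

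SNRPA1, which encodes the A' protein of U2 on chromosome 15, turned on a cassette exon of 80 nt (101286214 to 101286293). Of its 4 models 2 held the exon and 2 skipped it. The coding region had 256 codons with the exon and 155 without it, where it ended 164 nt upstream of the last exon junction. Both models with neither of 2 upstream coding exons, 1 with the cassette exon and 1 without, carried no coding region.

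In the tri-snRNP group PRPF31, a gene linked to retinitis pigmentosa, had 5 models. Of these, 3 shared 1 coding region of 500 codons behind 5' untranslated regions of 35, 58 and 65 nt, set by 3' splice sites 7 and 23 nt apart. Another kept an intron of 86 nt (chromosome 19, 54129186 to 54129271) and had 492 codons. PRPF18 held 343 codons with and 296 without a cassette exon of 141 nt. PRPF38B had 3 models with 94, 192 and 457 codons, the first with a cassette exon of 53 nt (chromosome 1, 108693590 to 108693642). Its region of 457 codons ended 1 nt before the end of the model. In RBM42 a cassette exon of 66 nt separated models with 474 and 452 codons, and the 5 models had 5 coding regions. In the minor spliceosome RBM41 had 438 codons with and 414 without a cassette exon of 72 nt, while SNRNP25, SNRNP48 and RBM48 had 1 model each and SNRNP35 had 2.

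CLK1, CLK2 and CLK3 had different patterns. In CLK1 an exon of 91 nt (chromosome 2, 200860125 to 200860215) was included in 1 model with 485 codons and skipped in 2 with 259. The remaining model retained the whole stretch of 1491 nt around it, the introns of 378 and 1022 nt and the exon, and had 334 codons behind a 5' untranslated region of 1976 nt. The exon is known as a control point of CLK1, whose kinase activity needs it. In CLK3 an exon of 97 nt (chromosome 15, 74622120 to 74622216) was included in 4 models with 491 to 505 codons and skipped in 1 with 270. CLK3 also kept an intron of 674 nt in 1 model with 495 codons. The 4 models of CLK2 all had 13 exons and differed only at the pairs of sites 3 nt apart and at their first base.

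Among RBM genes RBM39 had an exon of 73 nt (chromosome 20, 35740525 to 35740597) in 5 of 7 models. The 2 models without it had 525 and 531 codons, and 2 with it had 368 and 374 codons behind 5' untranslated regions of 853 nt, against 307 and 308 nt. The other 3 with it ended early, in separate last exons, and carried no coding region. RBM3, a cold-induced RNA-binding protein gene, had 158 codons without and 117 with a cassette exon of 269 nt (chromosome X, 48575815 to 48576083). These 2 coding regions differed in start, stop and reading frame, so the 117 codons are not a shortened form of the 158. With the exon the untranslated regions were 613 nt (5') and 725 nt (3'), and without it 103 and 843 nt. RBM23 had 3 cassette exons of 48, 76 and 113 nt, with 440 and 424 codons in the models that hold the last and 270 in the model that skips it. RBM34 had 431 codons with and 118 without an exon of 137 nt. In RBM4B, the paralogue of RBM4, 360 codons stood beside 144 without an exon of 677 nt and 152 in a model of 2 exons. RBM5, an apoptosis-linked splicing regulator, had 816 codons in 25 exons and 2 short models with 172 and 144 codons, the latter with a retained intron of 480 nt. RBM6 had 1124 and 602 codons and a model without a coding region, and RBM14 had 670 and 157 through 5' splice sites 1354 nt apart.

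Among the LSM genes coding regions were often short or not given. LSM5 and LSM6 had 3 models each and, with SNRPG, were the 3 genes without any coding region. LSM2 had 4 models, 2 of them coding with 96 and 43 codons, and cassette exons of 31 and 68 nt that were each skipped in 1 model. LSM1 had 3 models, of which 1 was coding with 134 codons; a cassette exon of 116 nt was in that model and in 1 of the others. LSM7 had 2 models with 3' splice sites 4 nt apart, and the coding one had 104 codons. LSM14A, a P-body protein gene, had 2 models with 464 codons each and different coding regions, 1 with a cassette exon of 57 nt (chromosome 19, 34226408 to 34226464). LSM3, LSM8, LSM10 and LSM12 had 1 model each.

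Over all members, most genes with several coding models had more than 1 coding region: 33 of 37 did (89.2%, 95% Wilson interval 75.3 to 95.7%), against 84.4% of all such genes. The exceptions were SNRNP27, SNRPA, SNRPB2 and SNRPN. Different start positions were found in 15 of the 37 (40.5% against 44.8%) and different stop positions in 13 (35.1% against 41.6%). At least 2 sets of 5' untranslated introns before 1 coding region were found in 8 (21.6% against 31.7%), with 4 in U2AF1L4 and 3 each in PRPF31, SNRPA and SNRPN, then 2 in CLK1, CLK3, RBM23 and SNRPB2.

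**Figure D5:**
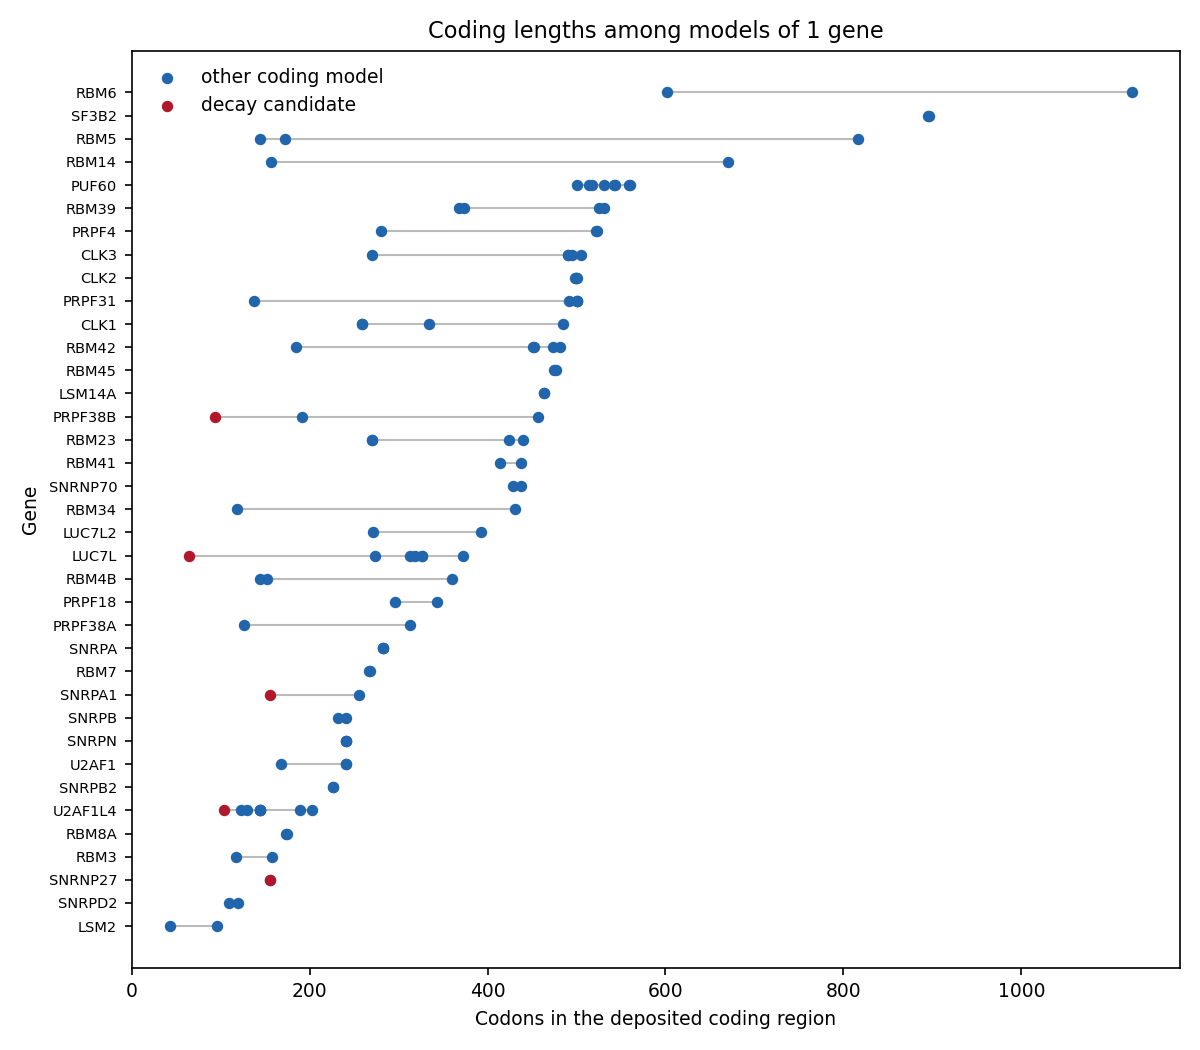
Codons in the deposited coding region of each model (x axis) for the 37 spliceosome and RBM genes with at least 2 coding models (y axis), with decay candidates in red; equal values lie on top of each other, as in SNRNP27, where both models have 156 codons. RBM5, RBM6 and RBM14 span the widest ranges, and CLK2, SF3B2 and RBM8A differ by 1 or 2 codons.

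Cassette exons inside a coding region, flanked by coding sequence on both sides in at least 1 model that holds them, numbered 21 of 35 and lay in 15 genes. A length divisible by 3 was found for 8 of the 21 (38.1%, 95% Wilson interval 20.8 to 59.1%), against 44.2% of 2123 such exons in the catalogue. Among RBM genes 3 of 5 were divisible by 3. The 8 were in LUC7L (177 nt), PRPF18 (141 nt), PUF60 (51 nt, and 84 and 87 nt for 1 exon with alternative ends), RBM23 (48 nt), RBM41 (72 nt) and RBM42 (66 nt). The other 13 were in CLK1, CLK3, LSM1, LSM2, LUC7L, RBM23, RBM34, SNRPA1, SNRPE, U2AF1 and U2AF1L4. Over all 35 the median length was 76 nt, against 110 nt in the catalogue.

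Candidates for nonsense-mediated decay, whose stop codon lies over 50 nt before the final exon junction, were found in 5 of 82 genes with a coding region (6.10%, 95% Wilson interval 2.63 to 13.5%), against 5.01% of all such genes. They were 5 of 161 coding models (3.11%, against 3.14%). The candidate of SNRPA1 had 155 codons and its stop 164 nt upstream. That of PRPF38B had 94 codons and that of U2AF1L4 had 104, each with its stop 268 nt upstream. That of LUC7L had 64 codons and its stop 79 nt upstream. In SNRNP27 the candidate kept the full 156 codons and differed by removal of an intron of 86 nt behind the stop, which put the stop 117 nt upstream of the last junction. Just below the threshold were models of LUC7L and LSM14A at 33 nt, RBM3 at 23 nt, RBM4B at 9 nt and RBM45 at 8 nt. Among the 26 RBM genes there was no candidate. Taking 3 counts over the 26 genes as the upper bound, which is not a Wilson limit, allows a share of up to 11.5%. The difference from the other members was not tested. The call is a rule on model structure, and decay was not measured. U2AF1, CLK1 and RBM39 had no candidate, although their cassette exons of 67, 91 and 73 nt are not divisible by 3. The deposited coding region began downstream of these exons in the U2AF1 model with both, the CLK1 models that skip the exon and the coding RBM39 models that hold it. Longer 5' untranslated regions also went with skipped exons in CLK3 (97 nt exon, 598 against 41 to 59 nt) and RBM34 (137 nt, 813 against 9 nt). The same held in RBM23 (113 nt skipped, 510 against 152 and 161 nt) and RBM3 (269 nt held, 613 against 103 nt). The call thus depends on where the coding region was placed, also among RBM genes.

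Lengths of the 3' untranslated region behind 1 stop differed by at least 100 nt in 9 of 37 genes (24.3%, 95% Wilson interval 13.4 to 40.1%), against 15.3% of all such genes. RBM8A, the Y14 subunit of the exon junction complex, had 159 and 2232 nt. PRPF38A had 331 and 1624 nt, RBM41 387 and 1296 nt, RBM34 64 and 530 nt, and SNRNP27 842 and 1283 nt. The remaining 4 genes were SNRPB2, PRPF18, RBM23 and LUC7L.

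Retained introns numbered 11 in 8 genes: CLK1, CLK3, PRPF31, RBM5, SNRNP27, SNRPA, SNRPE and U2AF1L4. The 3 of CLK1 lie in 1 stretch kept by 1 model, and the 2 of SNRPA overlap in 1 model. The total thus counts some stretches more than once. The shortest were the introns of 86 nt in PRPF31 and SNRNP27, and in U2AF1L4 an intron of 177 nt (35744146 to 35744322) was kept in 2 models and removed in 8. U2AF1L4 was the only one of the 8 genes in which at least 2 models kept and at least 2 removed the intron.

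Other spliceosome genes, a list of 59 such as SF1, AQR, EFTUD2 and DHX8 that the naming rule does not take, were present to a similar extent: 49 had a model (83.1%). Of these 19 had at least 2 models (38.8%), fewer in share than the 51.8% of the members, a difference not tested. Alternative 3' splice sites were found in 5 of the 19 (26.3%, beside 38.6% of the members) and sites 3 nt apart in 1 (5.26%, beside 15.9%). Alternative 5' splice sites were found in 9 of the 19 (47.4%, beside 20.5%) and first exons that do not overlap in 8 (42.1%, beside 13.6%). A cassette exon was found in 8 (42.1%, beside 54.5%), last exons that do not overlap in 6 (31.6%, beside 20.5%) and a retained intron in 1 (5.26%, beside 18.2%). A decay candidate was found in 2 of the 49 (4.08%, beside 6.10%). None of these differences was tested.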

How the data were processed

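The deposited data are whole-number positions (nt, counted from 1) of transcripts, exons and coding segments, in 1 catalogue that names PacBio as source on each line, per the file itself. STAR 2.7.8a is listed in the submitters' processing notes, as is Salmon 1.9.0, neither with its purpose. The sources used here do not give how models and coding regions were made and filtered, or on which build. The build was taken as GRCh38 from the data: of 19276 models on the chromosome of the RefSeq GRCh38.p14 gene of their name, 19239 (99.8%) overlapped it, and 2652 of 15923 starts fell on its exact start base.

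With no count per library, no test, depth or error between libraries can be given. Python 3.11.15 scripts computed introns, events, coding lengths (last codon included) and Wilson intervals (scipy 1.17.1). Their event calls were tested on simulated data. Alternative splice sites join exons that overlap and share the other intron end. Members, lists and the naming rule were chosen with earlier results of these data known. Named were the 12 genes with most models (ties in order of symbol), all with a decay candidate, coding cassette exon or retained intron, the largest untranslated differences, and the Sm, LUC7-like and CLK genes. Others were chosen after their values were seen. RefSeq protein lengths were not used here.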

Additional observations from a re-analysis of the deposited data

How the results depend on the processing

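No paired analysis was possible because the catalogue holds no value per library, and leaving out replicates was not possible for the same reason. Of 41 alternatives to 9 results, 31 left the value near the reported one (shares within the interval, means within the SD) and 10 moved it further. Some alternatives could hardly move a value: the RefSeq protein-coding setting kept the same 85 genes, and adding RBM4 brought in 1 gene. Retained introns and 3' untranslated differences were compared as counts, which fall in a smaller set. The tally is therefore no measure of robustness. With RBM genes only, 72.2% of the listed genes had a model, 60% of coding cassette exons were divisible by 3 (3 of 5), 1 gene had a retained intron, 0 of 26 had a decay candidate, 100% had at least 2 coding regions and 4 genes had different 3' untranslated lengths (5 without RBM genes). With each form required in 2 models, 11.4% of genes had a cassette exon, 75.0% of coding cassette exons were divisible by 3 (3 of 4) and 1 gene had a retained intron. Genes with 2 or 3 models cannot meet that requirement. Decay candidates were in 9 genes at 0 nt, 5 at 55 nt and 4 at 100 nt, and in 3 without coding regions under 100 codons. A comparison of coding lengths with RefSeq protein lengths, with its 4 settings, was not run. Unknown depth limits how completely isoforms were sampled.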
